A study of Mus musculus with 6 samples.

Results

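The clustered histone genes are the 67 protein-coding genes of the deposited table whose symbols begin with Hist1h, Hist2h, Hist3h or Hist4h, out of 54532 genes in all. The rule used symbol and biotype only and no measured value, but this set was chosen with earlier results of these data known. The Hist1 cluster on chromosome 13 held 54 of them, the Hist2 cluster on chromosome 3 held 10, the Hist3 cluster on chromosome 11 held 2, and Hist4h4 stood alone on chromosome 6. By the protein they encode, 18 were H2A genes, 18 H2B, 13 H4, 12 H3 and 6 H1.

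Their expression was measured by RNA-seq in 6 libraries of cultured mouse vascular smooth muscle cells, which form the muscular layer of arteries. In 3 of them (Ad-Con) the cells carried an adenoviral vector with a control plasmid and were of the genotype labelled WT. In the other 3 (Ad-PDK4) the vector carried an overexpression plasmid for pyruvate dehydrogenase kinase 4, an enzyme of mitochondria that switches pyruvate dehydrogenase off. Per the study's methods the cells were isolated by collagenase digestion from the abdominal aorta of adult wild-type mice, passaged in serum and starved of serum before experiments, and its results state that both groups then received angiotensin II. The labels give growth in DMEM with 10% fetal bovine serum for all 6 samples and mention neither the starvation nor angiotensin II. The description of how the cells were isolated names no mouse strain, and the wild-type animals used elsewhere in the study were C57BL/6J. Expression from an adenoviral vector is transient and can differ between the cells of a culture.

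Each nucleosome wraps DNA around a core of the histones H2A, H2B, H3 and H4, and the linker histone H1 binds where DNA enters and leaves it. Most clustered histone genes are replication-dependent: they are transcribed strongly in S phase, when new DNA must be packaged, and their mRNAs end in a conserved stem-loop instead of a poly(A) tail. The stem-loop is bound by the stem-loop binding protein SLBP, and the mRNAs are degraded quickly when DNA synthesis stops. A smaller number of these genes also give poly(A)-tailed transcripts that run past the stem-loop, which cells outside the cycle can use, and replication-independent variants such as H3.3 and H2A.Z come from genes elsewhere in the genome. Library kits that select mRNA by its poly(A) tail capture tailless histone mRNAs poorly. A SMARTER mRNA-Seq kit is named in the labels and a NEBNext Ultra RNA kit in the study's methods, so how the members were captured cannot be told from the sources used here.

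To show the element that defines these mRNAs, the stem-loop was searched in the members' annotated transcripts after the stop codon. It was taken as a 16-base run with 6 paired stem bases on each side of a 4-base loop. The stem had to begin with GG, and so to end with CC, to pair at every base, and to hold a loop of TTTC or TTTA. Of the 67 members, 41 had it in this form and 26 did not, and a variant outside these limits would be missed. Of these 26 members, 15 had annotated models that end under 30 bases after the stop codon, too early to reach it. The 41 copies were of 4 kinds, printed here from 5′ to 3′ as DNA of the GENCODE M21 transcripts (GRCm38) with 5 bases on each side and the stem-loop in capitals. The commonest kind, in 26 members, is that of Hist1h1c, the kind in 7 members is that of Hist1h4h, the kind in 6 members is that of Hist1h2bb, and the kind in 2 members is that of Hist1h4j.
Hist1h1c: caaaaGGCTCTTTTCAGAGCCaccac
Hist1h4h: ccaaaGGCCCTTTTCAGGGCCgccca
Hist1h2bb: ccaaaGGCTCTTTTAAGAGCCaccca
Hist1h4j: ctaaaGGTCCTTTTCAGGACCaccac
All 4 begin with GG and end with CC because the search required it, and they differ within the stem or the loop.

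The targeted gene was read first. Pdk4 measured 9.50, 10.4 and 10.1 FPKM (fragments counted per gene, scaled by gene length and library size) in the 3 Ad-Con libraries and 7.67, 7.40 and 7.38 FPKM in the 3 Ad-PDK4 libraries. It was lower, not higher, in the libraries labelled Ad-PDK4 (log2 fold change −0.42 ± 0.06 SE, adjusted p = 0.00114, limma), so this gene went against the group label, and directions below are those of the libraries labelled Ad-PDK4 against Ad-Con. The libraries held 17588942 to 21861872 counted fragments, called reads here, and members took 0.0319% to 0.0431% of them. Of the markers that define smooth muscle, Acta2 was at 78.0 ± 0.95 FPKM in Ad-Con and 36.2 ± 2.40 in the libraries labelled Ad-PDK4 (SD, n = 3 each), whereas Myh11, Tagln, Cnn1 and Des each had a mean under 0.5 FPKM in both groups. The 10 smooth muscle markers summed to 172 to 173 FPKM in Ad-Con and 135 to 145 FPKM in the other group, and 5 of them were tested. Acta2 and Tpm2 (27.8 ± 0.996 to 22.1 ± 1.59 FPKM) fell, Cald1 rose from 56.0 ± 0.65 to 71.9 ± 2.82 FPKM (log2 fold change 0.36 ± 0.05, adjusted p = 0.00066), and Smtn was at 8.32 and 8.44 FPKM. Lmod1 was at 0.720 and 0.570 FPKM and did not pass. Mylk, which was not tested, was at 0.756 ± 0.138 FPKM in Ad-Con and 0.123 ± 0.024 FPKM in the other group. Of the 10 macrophage markers, 7 had 3 reads or fewer in every library, and the list's summed FPKM was 15.0 to 17.9 in Ad-Con and 5.91 to 7.44 in the other group, with Cd68 at 14.2 ± 1.78 and 4.24 ± 0.99 FPKM. The other two with more reads were higher in mean in the libraries labelled Ad-PDK4, Lyz2 at 1.51 and 1.98 FPKM and Csf1r at 0.258 and 0.640 FPKM. Endothelial markers, of which 4 of 8 had 3 reads or fewer everywhere, summed to 0.634 to 0.827 FPKM against 0.924 to 1.18, and 8 fibroblast markers to 1430 to 1556 FPKM against 738 to 806, of which Col1a1 made up most. Of the 6 fibroblast markers tested 4 fell, among them Col1a1 (1056 to 435 FPKM), 1 rose (Dcn, 90.1 to 161 FPKM, adjusted p = 0.000404), and the log2 fold change of Pdgfra was −0.05 ± 0.06 (adjusted p = 0.544). Their part in the histone results was not tested. In bulk samples such as these, fewer cells of a kind and less RNA per cell cannot be told apart.

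Most clustered histone genes were near or under the detection limit. Of the 67, 8 had 0 reads in every library and a further 14 had 3 reads or fewer in each. A gene entered the comparison when its mean over the 6 libraries was at least 0.5 FPKM, which left 26 members, 6 of them with under 10 reads on average, and 41 outside. Many members are alike in sequence. In 28 of the 67, under 50% of the 100-base windows of the transcript were found in no other gene's transcript. For 5 of the 8 members at 0 reads (Hist2h2aa1, Hist2h2aa2, Hist2h3c1, Hist2h3b and Hist2h2bb) no window was unique and other annotated genes covered the whole exon, so 0 reads does not show that these genes are silent. The other 3 at 0 were Hist2h2ab, Hist1h2ba and Hist1h2aa. A count of 0 allows up to 3 reads, counting error only.

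The summed level was carried by a pair of genes. Hist1h1c (ENSMUSG00000036181, chr13:23738808-23740367, plus strand, GRCm38), which encodes a linker histone, measured 138.8, 169.3 and 132.2 FPKM in Ad-Con and 145.7, 163.1 and 161.9 FPKM in the libraries labelled Ad-PDK4. These groups overlapped, and the change was 0.10 ± 0.10 (log2 ± SE, adjusted p = 0.43). Hist1h2bc, an H2B gene, measured 51.9, 64.9 and 50.5 FPKM in Ad-Con and 103.3, 102.4 and 105.9 FPKM in the other group. All 3 libraries labelled Ad-PDK4 lay above all 3 of Ad-Con, with 2072 to 2704 reads against 1058 to 1318. Together the pair made up 78.8% ± 1.39 (SD, n = 3) of the members' summed FPKM in Ad-Con and 82.2% ± 0.67 in the libraries labelled Ad-PDK4. The third member by level, the H2B gene Hist1h2bg, had a mean of 9.43 FPKM over the 6 libraries, and from the sixth on all were under 3 FPKM.

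Summed over all 67 members, the level was 257 ± 30.4 FPKM in Ad-Con and 317 ± 14.9 FPKM in the libraries labelled Ad-PDK4 (SD, n = 3 each). By library these were 244, 292 and 235 FPKM against 300.1, 325 and 327 FPKM, so the highest Ad-Con library lay just under the lowest of the other group. Without Hist1h1c and Hist1h2bc the sums were 54.3 ± 2.73 FPKM and 56.5 ± 4.68 FPKM and overlapped. As a share of all recovered reads the same 65 genes took 0.00520% to 0.00576% in Ad-Con and 0.00476% to 0.00518% in the other group, which was lower and did not overlap, so the direction of this remainder depends on the scale. The 11 replication-independent histone genes, measured beside them, summed to 591 ± 11.9 FPKM in Ad-Con and 460 ± 12.4 FPKM in the libraries labelled Ad-PDK4. No test was run on these sums.

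**Figure D1:**
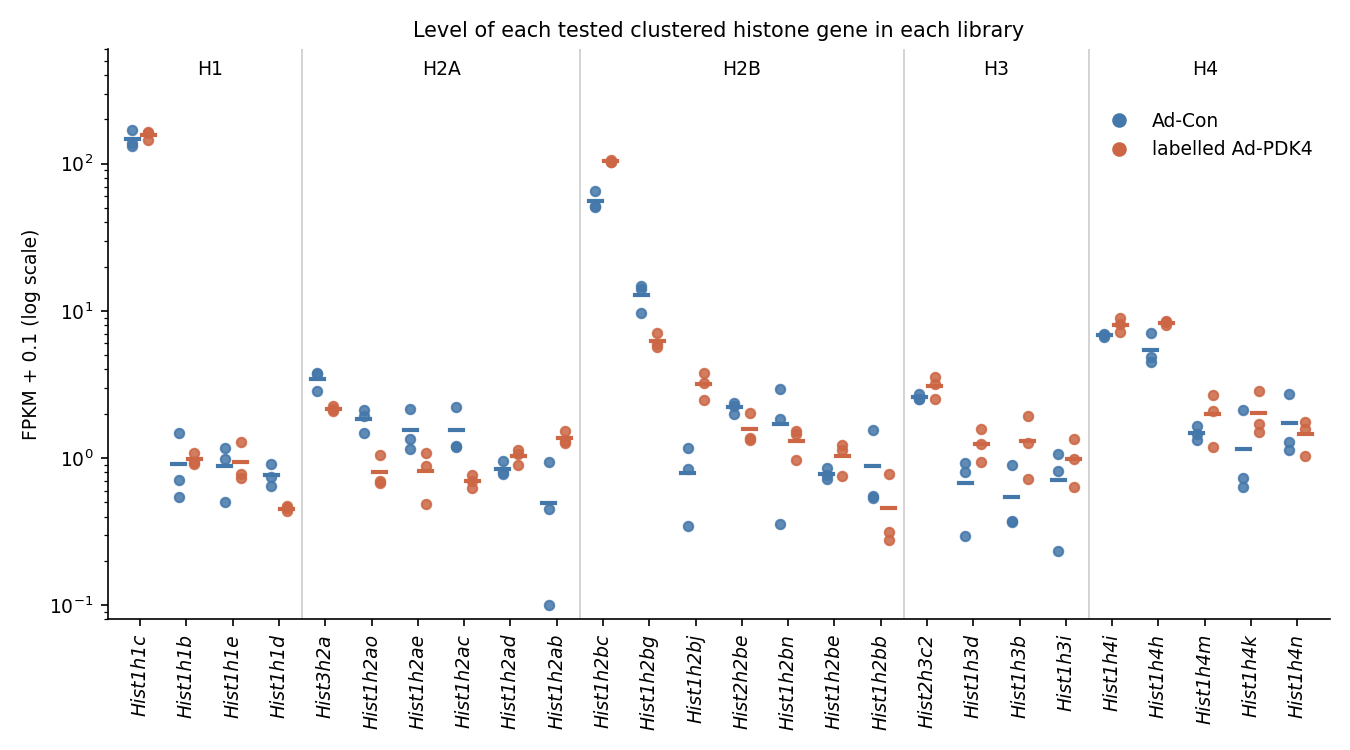
FPKM + 0.1 (log axis) of the 26 tested clustered histone genes in each of the 3 Ad-Con (blue) and 3 labelled Ad-PDK4 (orange) libraries, grouped by histone class, with 1 point per library and a bar at the mean. Hist1h1c and Hist1h2bc stand above all others, and the groups of Hist1h2bc do not overlap.

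Between the groups, 7 of the 26 tested members passed an adjusted p of 0.05 (limma with Benjamini-Hochberg adjustment over 13423 genes), 3 of them higher in the libraries labelled Ad-PDK4 and 4 lower. This is 26.9% of the tested members, beside 42.7% of all tested genes, of which 21.8% were higher and 20.8% lower. With a fold change of at least 2 as well, 1 member was higher and 3 were lower, 15.4% of the tested members beside 6.63% of all tested genes. In 12 members (46.2%) the 3 libraries of a group all lay on one side of the other group's, beside 54.3% of all tested genes. The median log2 fold change was 0.23 over the 26 members and −0.003 over all tested genes, with 17 members above 0 and 9 below. With Ad-Con replicate 1, Ad-Con replicate 2, Ad-PDK4 replicate 1 or Ad-PDK4 replicate 2 left out, 5 members were higher in place of 3. Over all tested genes 2324 to 2700 were then higher in place of 2928.

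The 3 members that rose were 2 H2B genes and an H4 gene. Hist1h2bc (ENSMUSG00000018102, chr13:23684199-23692908, plus strand, GRCm38) rose by 0.91 ± 0.09 on the log2 scale (adjusted p = 0.000175), from 55.8 ± 7.97 to 104 ± 1.81 FPKM. Hist1h2bj (ENSMUSG00000069300, chr13:22043214-22043676, plus strand) had the largest rise of the tested members, 2.16 ± 0.45 (adjusted p = 0.00936). It was at 0.743, 0.246 and 1.07 FPKM in Ad-Con and at 2.37, 3.70 and 3.13 FPKM in the other group. Behind these stood 7, 2 and 9 reads against 20, 30 and 32, so the groups did not overlap but the Ad-Con level rests on few reads. The H4 gene Hist1h4h (ENSMUSG00000060981, chr13:23531050-23531519, plus strand) was at 4.39, 4.73 and 6.92 FPKM in Ad-Con and at 8.30, 7.90 and 8.48 FPKM in the other group. It rose by 0.64 ± 0.16 (adjusted p = 0.0160), and its call was lost when either Ad-Con replicate 2 or Ad-PDK4 replicate 3 was left out (highest adjusted p = 0.0552).

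The 4 members that fell were 3 H2A genes and an H2B gene. Hist1h2bg (ENSMUSG00000058385, chr13:23571396-23572013, plus strand), the highest of them, was at 13.9, 14.7 and 9.64 FPKM in Ad-Con and at 5.60, 5.82 and 6.96 FPKM in the libraries labelled Ad-PDK4 (log2 fold change −1.03 ± 0.17, adjusted p = 0.00290). The H2A gene Hist3h2a (ENSMUSG00000078851, chr11:58954685-58956830, plus strand) was at 2.75, 3.69 and 3.65 FPKM against 1.97, 2.05 and 2.15 FPKM (−0.67 ± 0.13, adjusted p = 0.00427). In both genes every library labelled Ad-PDK4 lay below every Ad-Con library. Exons of Trim17 and of an antisense miRNA gene overlap 33.0% of the annotated Hist3h2a exon. Trim17 had 1, 8 and 5 reads in Ad-Con and 11, 9 and 14 in the other group, the opposite direction to Hist3h2a.

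Hist1h2ac (ENSMUSG00000069270, chr13:23681467-23683948, minus strand) was at 1.09, 2.13 and 1.11 FPKM in Ad-Con and at 0.598, 0.668 and 0.529 FPKM in the libraries labelled Ad-PDK4 (−1.09 ± 0.27, adjusted p = 0.0145), with 50 to 93 reads against 27 to 29. Hist1h2ao (ENSMUSG00000094248, chr13:21810465-21810944, plus strand) was at 1.84, 2.02 and 1.38 FPKM against 0.572, 0.595 and 0.943 FPKM (−1.21 ± 0.23, adjusted p = 0.00398), with 18, 17 and 12 reads against 5, 5 and 10. The groups of both genes were apart. Only 7.35% of the windows of Hist1h2ao were unique to it, so its reads may have come in part from near-identical H2A genes, and its value is uncertain for that gene alone. For the other members that passed the share was 55.1% (Hist1h2bg), 59.9% (Hist1h2bj), 61.5% (Hist1h4h), 70.2% (Hist3h2a), 74.6% (Hist1h2bc) and 91.9% (Hist1h2ac). Among the tested members that did not pass it was lowest in Hist1h4m (11.9%) and Hist1h4n (19.3%). The same limit applies to these genes where the share is low.

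**Figure D2:**
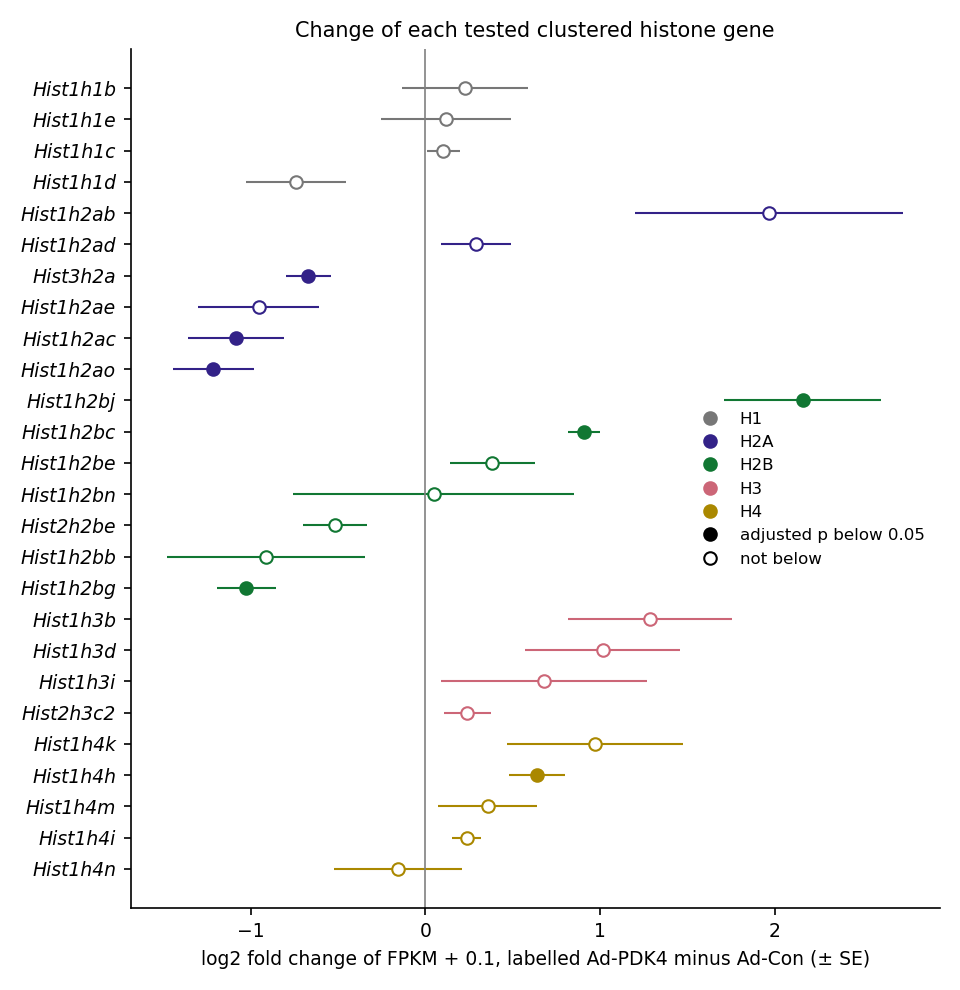
Log2 fold change of FPKM + 0.1 (x axis, labelled Ad-PDK4 minus Ad-Con, bars ± SE) of the 26 tested members, coloured by histone class, filled where the adjusted p was below 0.05. The 7 filled points are Hist1h2bc, Hist1h2bj and Hist1h4h to the right of 0, and Hist1h2bg, Hist3h2a, Hist1h2ac and Hist1h2ao to the left.

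By class, none of the 4 tested H1 genes passed, beside 42.7% of all tested genes. Besides Hist1h1c these were Hist1h1b (0.23 ± 0.36), Hist1h1e (0.12 ± 0.37) and Hist1h1d (−0.74 ± 0.29, adjusted p = 0.0713), all linker histones. The groups of Hist1h1d did not overlap, as in 54.3% of all tested genes, at 0.543, 0.805 and 0.646 FPKM against 0.355, 0.369 and 0.335 FPKM. The summed H1 level was 149 ± 20.1 FPKM in Ad-Con and 159 ± 9.83 FPKM in the libraries labelled Ad-PDK4, almost all of it Hist1h1c.

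Of the 6 tested H2A genes, 3 fell and none rose, beside 20.8% lower and 21.8% higher of all tested genes. Their median log2 fold change was −0.81. Hist1h2ae, also below 0, was at 1.26, 1.05 and 2.04 FPKM against 0.781, 0.974 and 0.386 FPKM (−0.95 ± 0.35, adjusted p = 0.0576). The other two lay above 0 without passing, Hist1h2ab at 1.97 ± 0.77 (adjusted p = 0.0797) and Hist1h2ad at 0.29 ± 0.20 (adjusted p = 0.285). Hist1h2ab had 0 reads in Ad-Con replicate 1. The sum over all 18 H2A genes was 9.89 ± 1.35 FPKM in Ad-Con and 7.07 ± 0.94 FPKM in the other group, ranges of 8.44 to 11.1 and 6.29 to 8.12 that did not overlap. In all 6 tested H2A genes an annotated antisense miRNA gene of 138 bases, with 0 reads in every library, overlaps the exon. Such overlapping genes, with Trim17 in Hist3h2a and a same-strand rRNA gene of 108 bases, also at 0 reads, in Hist1h2ac, cover between 9.91% and 33.0% of it. Its effect on these levels was not tested.

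Of the 7 tested H2B genes, 2 rose and 1 fell, beside 21.8% higher and 20.8% lower of all tested genes. The other H2B genes tested were Hist2h2be (−0.52 ± 0.18, adjusted p = 0.0522), Hist1h2bb (−0.91 ± 0.56), Hist1h2be (0.38 ± 0.24) and Hist1h2bn (0.05 ± 0.80), which did not pass. Hist1h2bn had the widest error of the tested members, at 0.258, 2.84 and 1.74 FPKM in Ad-Con. The annotated exons of Hist1h2be and the H1 gene Hist1h1e overlap, so the values of both are uncertain. The H2B sum, 75.7 ± 9.69 FPKM in Ad-Con and 120 ± 3.53 FPKM in the libraries labelled Ad-PDK4, was mostly Hist1h2bc.

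All 4 tested H3 genes lay above 0 and none passed, beside 42.7% of all tested genes. The H3 genes were Hist1h3b (1.28 ± 0.47, adjusted p = 0.0594), Hist1h3d (1.01 ± 0.44, adjusted p = 0.103), Hist1h3i (0.68 ± 0.59) and Hist2h3c2 (0.24 ± 0.14). Over the 12 H3 genes the summed level was 5.21, 5.28 and 4.66 FPKM in Ad-Con and 7.13, 10.2 and 6.95 FPKM in the other group, so these sums did not overlap, with 77 to 88 reads per library against 116 to 142.

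Of the 5 tested H4 genes, which encode the same protein from many copies, Hist1h4h rose and 4 did not pass. Among all tested genes 21.8% were higher. Hist1h4i was at 6.83, 6.58 and 6.75 FPKM against 8.01, 7.07 and 8.78 FPKM (0.23 ± 0.09, adjusted p = 0.0568). Its groups did not overlap, as in 54.3% of all tested genes. The change of Hist1h4k was 0.97 ± 0.51, that of Hist1h4m 0.36 ± 0.28 and that of Hist1h4n −0.16 ± 0.37. The H4 sum was 17.1 ± 0.51 FPKM in Ad-Con and 23.2 ± 1.39 FPKM in the libraries labelled Ad-PDK4, with 16.6 to 17.6 FPKM against 22.2 to 24.8 FPKM by library.

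**Figure D3:**
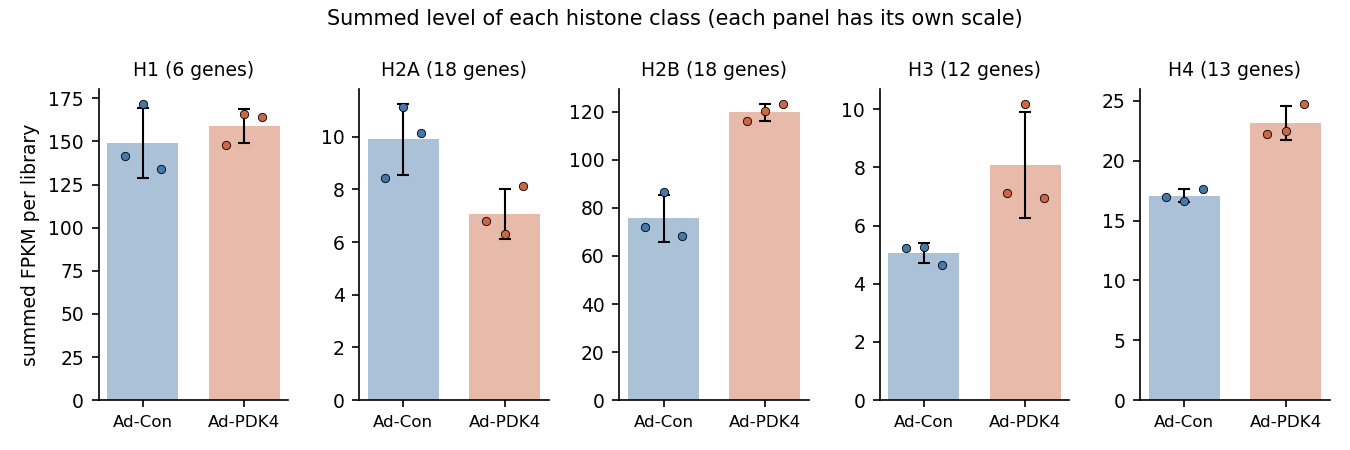
Summed FPKM per library of the 6 H1, 18 H2A, 18 H2B, 12 H3 and 13 H4 genes (y axis, from 0, with its own scale in each panel). Bars are means, error bars SD and points the 3 libraries of a group. The H2A sums of the libraries labelled Ad-PDK4 lie below those of Ad-Con, the H2B, H3 and H4 sums lie above, and the H1 sums overlap.

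Among the 41 members outside the comparison, the highest by reads were Hist2h4 (64 reads over the 6 libraries), Hist1h2bh (60), Hist1h2bq (57), Hist1h2bp (32) and Hist1h3g (29). The H4 gene Hist2h4, in which all windows were unique, had 2, 1 and 7 reads in Ad-Con and 17, 17 and 20 in the libraries labelled Ad-PDK4, or 0.060, 0.035 and 0.237 FPKM against 0.573, 0.596 and 0.555 FPKM. Its groups did not overlap. In the comparison without a minimum level it passed with a log2 fold change of 1.8 ± 0.38 (adjusted p = 0.0170, limma). Hist1h2bh had 8, 3 and 8 reads against 8, 15 and 18, Hist1h2bq 8, 6 and 7 against 5, 15 and 16, Hist1h2bp 3, 3 and 14 against 3, 5 and 4, and Hist1h3g 0, 1 and 5 against 10, 10 and 3, with overlap in each. Hist1h2bf and Hist1h3h, named after their values were seen, also passed in the comparison without a minimum level, and both rest on few reads. Hist1h2bf, an H2B gene, had 0, 1 and 0 reads in Ad-Con and 4, 6 and 9 in the other group, and no fold is given at these counts. Hist1h3h, an H3 gene, had 3, 1 and 1 reads against 0 in each library, both at or under the limit of 3 reads.

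The annotated 3′ end of a member decides which reads can be counted for it. Among 21 members whose models end within 100 bases of the stem-loop, 9 were tested, and their median level over all 21 was 0.371 FPKM. Among 20 whose models run on for more than 100 bases, 10 were tested and the median level was 0.409 FPKM. Among the 26 with no stem-loop found, 7 were tested and the median was 0.178 FPKM. The highest member, Hist1h1c, has a model that runs 840 bases past its stem-loop. That of Hist3h2a runs 1643 bases past it and that of Hist1h2ac 2010 bases. The 1156-base model of Hist1h2bc has 2 exons and holds no stem-loop of the form searched. Of the 10 tested members with models that run on, 0 rose and 3 fell. Of the 9 with models that end near the stem-loop, 2 rose and 1 fell, and of the 7 with none found 1 rose. These small counts stand beside 21.8% higher and 20.8% lower of all tested genes. The median share of unique windows over each group was 83.5%, 43.4% and 44.1%, in that order. Whether reads came from tailless or from poly(A)-tailed transcripts cannot be told apart from gene-level values.

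Many H2A and H2B genes lie head to head and share the DNA between their start sites. Among the members there were 12 such pairs on opposite strands, each an H2A with an H2B gene, with 175 to 305 bases between the annotated starts. In 2 of them both genes were tested. Hist1h2ac and Hist1h2bc share a gap of 250 bases (chr13:23683949-23684198, GRCm38). The H2A gene fell by 1.09 and the H2B gene rose by 0.91 on the log2 scale, both past the test. Their mean levels over the 6 libraries were 1.02 and 79.8 FPKM. Hist1h2ae and Hist1h2bg share a gap of 175 bases (chr13:23571221-23571395). Both lay below 0, at −0.95 (adjusted p = 0.0576) and −1.03 (adjusted p = 0.00290), at mean levels of 1.08 and 9.43 FPKM. In 5 further pairs a single gene was tested, among them Hist1h2bj, at 1.88 FPKM, with Hist1h2ag at 0.0717 FPKM, and Hist1h2ao, at 1.22 FPKM, with Hist1h2bq at 0.246 FPKM.

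**Figure D4:**
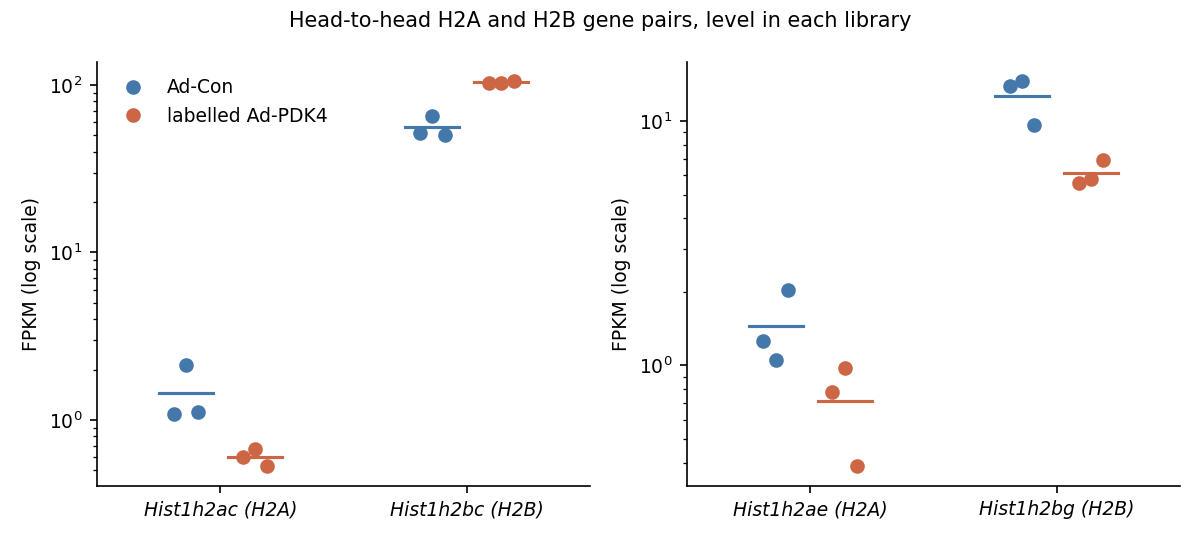
FPKM (log axis) of the genes of 2 head-to-head H2A and H2B pairs in each library, 3 Ad-Con (blue) and 3 labelled Ad-PDK4 (orange), with a bar at the mean. In the first pair the orange points lie below the blue ones for Hist1h2ac and above them for Hist1h2bc, and in the second pair they lie below for both genes.

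The shared DNA of both pairs is printed because the changes on its sides had opposite signs in the first pair and the same sign in the other. RefSeq promoters, from 250 bases before to 50 bases after a start (GRCm38.p6), were matched to 62 of the 67 members, 63 promoters in all, since Hist1h2be had more than 1. Capitals mark the motifs searched on both strands, the octamer motif ATTTGCAT, the CCAAT box CCAAT and the TATA box TATAAA. The promoter of Hist1h2ac (chr13:23683910-23684209, minus strand) spans the whole gap to Hist1h2bc, and that of Hist1h2bg (chr13:23571150-23571449, plus strand) the whole gap to Hist1h2ae. The promoter of Hist1h2bj (chr13:22042948-22043247, plus strand), the gene with the largest rise, is given for contrast.
Hist1h2ac: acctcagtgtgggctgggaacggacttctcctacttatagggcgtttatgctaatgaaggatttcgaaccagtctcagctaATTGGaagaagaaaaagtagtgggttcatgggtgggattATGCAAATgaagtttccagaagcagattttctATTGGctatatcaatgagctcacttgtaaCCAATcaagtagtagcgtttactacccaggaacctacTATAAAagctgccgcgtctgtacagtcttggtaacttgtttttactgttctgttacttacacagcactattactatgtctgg
Hist1h2bg: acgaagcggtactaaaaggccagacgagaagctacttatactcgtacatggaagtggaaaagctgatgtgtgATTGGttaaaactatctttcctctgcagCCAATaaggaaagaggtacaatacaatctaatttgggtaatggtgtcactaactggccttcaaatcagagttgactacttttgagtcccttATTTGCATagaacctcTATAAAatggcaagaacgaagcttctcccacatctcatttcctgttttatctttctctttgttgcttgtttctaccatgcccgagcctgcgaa
Hist1h2bj: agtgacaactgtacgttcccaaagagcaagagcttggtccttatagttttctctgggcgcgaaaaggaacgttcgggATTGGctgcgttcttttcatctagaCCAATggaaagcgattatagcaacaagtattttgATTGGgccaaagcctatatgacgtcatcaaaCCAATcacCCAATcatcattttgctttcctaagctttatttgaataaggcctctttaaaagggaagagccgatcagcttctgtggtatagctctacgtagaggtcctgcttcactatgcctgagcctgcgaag
The first and second each hold an octamer, CCAAT boxes and a TATA box, and the third holds CCAAT boxes alone.

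Across the members' promoters the octamer motif was in 22.2% beside 1.74% of all 32851 RefSeq promoters of the same length. It was in 7 of 18 H2A and 7 of 17 H2B promoters and in none of the H1, H3 or H4 promoters. The CCAAT box was in 85.7% beside 37.4% of all promoters, in every H1, H2A, H2B and H3 promoter but in 3 of 12 H4 promoters. TATAAA was in 55.6% beside 13.6%. Of the members that fell, Hist1h2bg, Hist3h2a and Hist1h2ac had the octamer and Hist1h2ao did not. Of those that rose, Hist1h2bj did not have it, nor did Hist1h4h, whose class had it in no promoter. The other tested members with it did not pass. Of these Hist1h2ae and Hist1h2bb lay below 0, and Hist1h2ab and Hist1h2be, which had it in a single promoter, lay above 0. Hist1h2bc, Hist2h2be and the other members without an entry were not matched, though the gap that Hist1h2bc shares with Hist1h2ac holds an octamer. A match describes the letters in these windows and says nothing of which factor was bound.

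Beside the clustered genes, replication-independent histone genes mostly fell. Of 11 tested, 9 (81.8%, beside 20.8% lower of all tested genes) fell and none rose, with a median log2 fold change of −0.50, beside −0.003 over all tested genes. Cenpa, the centromeric H3 variant, fell by 1.0 on the log2 scale (3.31 ± 0.46 to 1.60 ± 0.21 FPKM, adjusted p = 0.000925). H3f3a, which encodes H3.3, fell by 0.80 (52.5 ± 1.78 to 30.1 ± 1.60 FPKM, adjusted p = 2.51e-05), and the linker histone gene H1fx fell by 0.72 (adjusted p = 0.00029). H2afy, encoding macroH2A, was the member of this list farthest above 0, at 0.11 ± 0.06 (adjusted p = 0.17).

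The genes that process and degrade histone mRNA moved in both directions, 4 up and 3 down of 11 tested (63.6% passing, beside 42.7% of all tested genes), with a median of 0.04. The count of rises was 2 without Ad-Con replicate 1, Ad-PDK4 replicate 1 or Ad-PDK4 replicate 3. Slbp, the stem-loop binding protein, rose by 0.34 ± 0.11 (3.54 ± 0.50 to 4.49 ± 0.20 FPKM, adjusted p = 0.0346). Cpsf2, a subunit of the cleavage complex, rose by 0.59 (adjusted p = 0.000222), and Upf1, the helicase that takes part in histone mRNA decay, rose by 0.41 (adjusted p = 0.00206). Cpsf3, the endonuclease that makes the cut, fell by 0.22 (adjusted p = 0.0141), as did Lsm11 of the U7 particle by 0.42 (adjusted p = 0.0226) and Srrt by 0.41 (adjusted p = 0.000925). In 7 of its 16 alternative fits Slbp did not pass.

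Of 6 tested genes of histone gene transcription, 4 (66.7%, beside 21.8% higher of all tested genes) rose and none fell, with a median of 0.26. Only 2 rose without Ad-Con replicate 1, Ad-Con replicate 3, Ad-PDK4 replicate 1 or Ad-PDK4 replicate 3. They were Ccne1 (cyclin E1, 0.83 ± 0.19, adjusted p = 0.0101), E2f3 (0.34 ± 0.09, adjusted p = 0.0158), Npat (0.32 ± 0.10, adjusted p = 0.0370), the coactivator of histone gene clusters that cyclin E and CDK2 phosphorylate, and E2f1 (0.20 ± 0.07, adjusted p = 0.0444). Cdk2 was at −0.25 ± 0.10 (adjusted p = 0.0665) and counted as a fall without Ad-Con replicate 3. Hinfp, which binds H4 promoters, was at 0.11 ± 0.10. Npat did not pass in 7 of 17 alternative fits and E2f1 in 8 of 17.

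Among 20 histone chaperones, which carry histones to and from DNA, 2 rose and 4 fell, 30% passing beside 42.7% of all tested genes. With 1 library left out the rises ranged from 1 to 3, at 1 without Ad-PDK4 replicate 1 or any single Ad-Con library. Daxx, the chaperone that deposits H3.3 with ATRX, rose by 0.96 ± 0.07 (14.6 ± 1.12 to 28.6 ± 1.63 FPKM, adjusted p = 3.56e-05). Nap1l1, an H2A and H2B chaperone, fell by 0.51 (adjusted p = 0.00608), Chaf1b of the chromatin assembly complex CAF-1 by 0.50 (adjusted p = 0.0177) and the histone acetyltransferase Hat1 by 0.50 (adjusted p = 0.000909). Asf1a was at 0.24 ± 0.16 and Supt6 at 0.15 ± 0.06, neither of which passed.

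Most cell cycle genes that passed were lower where the label was Ad-PDK4. Of 28 tested genes of S-phase DNA replication 8 fell and 1 rose, 32.1% passing beside 42.7% of all tested genes, with a median of −0.27. The falls numbered 3 when Ad-Con replicate 3 was left out, and 4 when Ad-Con replicate 1 or Ad-PDK4 replicate 2 was. Pcna, the 1 that rose (0.15), did not pass in 11 of 17 alternative fits. Among the falls were Rrm2 (−0.67 ± 0.23, adjusted p = 0.0469, lost in 8 of 16 alternative fits), Prim2 (−0.59 ± 0.13, adjusted p = 0.00728) and Tk1 (−0.53 ± 0.13, adjusted p = 0.0109). Fen1 (0.56 ± 0.48), Mcm2 (0.26 ± 0.10) and Tyms (0.23 ± 0.13) lay farthest above 0 and did not pass. Of 8 G2/M genes 7 fell (87.5%, beside 20.8% of all tested genes), with a median of −0.75. The proliferation marker Mki67 fell by 1.34 (4.67 ± 0.77 to 1.77 ± 0.25 FPKM, adjusted p = 0.000258), Ccna2 by 1.23 (adjusted p = 0.000566) and Ccnb1 by 0.92 (adjusted p = 0.000889), and Cdk1 was at −0.17 ± 0.08 (adjusted p = 0.142). Over the 6 lists together 11 of 84 tested genes rose (13.1%, beside 21.8% of all tested genes) and 31 fell (36.9%, beside 20.8%). The count of rises was 5 without Ad-Con replicate 1 or without Ad-PDK4 replicate 1, and 7 when either of the other two Ad-Con libraries was left out. The part of these cell cycle changes in the histone values was not tested.

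**Figure D5:**
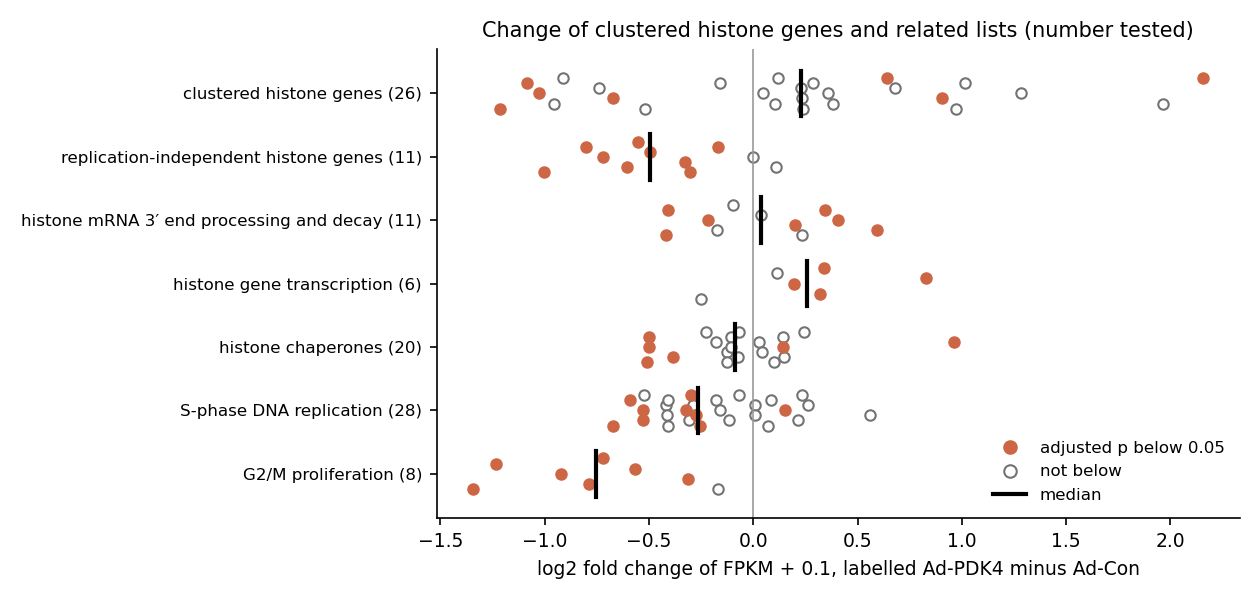
Log2 fold change of FPKM + 0.1 (x axis, labelled Ad-PDK4 minus Ad-Con) of the 26 tested clustered histone genes and of the tested genes of 6 related lists, 1 point per gene, filled where the adjusted p was below 0.05, with a black line at each median. The clustered histone genes spread from −1.21 to 2.16 around a median of 0.23, and the medians of the replication-independent histone genes (−0.50) and the G2/M genes (−0.75) lie below 0.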

How the data were processed

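RNA-seq libraries of 6 cell samples were compared, 3 Ad-Con and 3 Ad-PDK4, grouped by their treatment labels. The submitters' processing notes name CASAVA 1.8, fastp, HISAT2 2.0.5, featureCounts 1.5.0-p3 and DESeq2 1.20.0. The deposited table gave FPKM per gene and library as computed by the authors, with replicates not pooled, and the length of each gene in bases, also from the authors. The notes name the build GRCm39, but the table's coordinates equal those of GENCODE M21 (GRCm38) for 53499 of 54532 genes and for all 67 members, so GRCm38 is used. Whether counting used strand was not given in the sources used here, and antisense overlaps are therefore uncertain.

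FPKM times gene length gave whole reads (fragments) for 100% of values within 0.01, scaled between libraries by a median-of-ratios factor. The comparison used limma (version 3.58.1, R 4.3.3) on log2(FPKM + 0.1) (trend and robust empirical Bayes, two-sided, Benjamini-Hochberg over 13423 genes with a mean of at least 0.5 FPKM, passed at an adjusted p below 0.05). Fold changes are on that scale and understate changes of low genes. The script was tested on simulated data in which far fewer genes changed than passed here. That test does not give the error rate for these data. The members were fixed by symbol, and the members, 6 related lists and 4 marker lists were chosen with earlier results of these data known. Genes named were Pdk4, every tested member, the 5 untested members with most reads, and the 3 largest rises and falls of each related list. E2f1, Hinfp, Pcna, Cdk1, Trim17, Hist1h2ag, Hist1h2bf, Hist1h3h and the cell type markers lie outside this rule and were picked with their values in view. The study states that its 3 replicates per group were biological, but the labels do not say which cultures they came from, so p-values measure the spread between these samples. The alternatives were other pseudocounts, filters, scalings and moderation, limma-voom on recovered reads, a replicate block and leaving out each library.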

Additional observations from a re-analysis of the deposited data

How the results depend on the processing

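The 7 clustered histone genes that passed were tested in up to 17 alternative fits. Of these genes, 6 passed in every alternative that tested them, and Hist1h4h did not pass in 2 of 17, those that left out Ad-Con replicate 2 or Ad-PDK4 replicate 3. Another 11 members passed in at least 1 alternative, a count that was not made for all tested genes. The counts of members were 3 higher and 4 lower. They became 5 higher and 5 lower with no filter (59 members tested), beside 2677 and 2502 of all tested genes. With limma-voom on recovered reads (26 members tested) they became 5 and 6, beside 3255 and 3074. At a minimum mean of 5 FPKM (5 members tested) they became 3 higher and 1 lower, beside 2162 and 1881. At a minimum mean of 10 reads (22 members tested) they became 4 and 7, beside 3134 and 3070. How many genes each of these settings tested over the whole table is not given here. With 1 library left out the counts of members ranged from 2 to 5 higher and from 4 to 6 lower. The members' median log2 fold change stayed above 0, between 0.12 and 0.27, in every alternative, and the ratio of the summed levels was 1.24 in FPKM and 1.2 as a share of reads.

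Of 5726 genes passing over the whole table, 2928 were higher and 2798 lower, and with 1 library left out these ranged from 2324 to 2700 and from 2167 to 2694. Over the related lists, 11 higher and 31 lower became 6 higher with no filter, 6 with quantile normalization, 5 without trend or robust moderation, and 20 lower at a minimum mean of 5 FPKM, and with 1 library left out 5 to 10 higher and 22 to 28 lower. Falls among S-phase genes went from 8 to 3 with no filter and to 4 after rescaling to TPM or at a minimum mean of 5 FPKM, and 1 gene of histone gene transcription (Cdk2) fell with quantile normalization, limma-voom or the block. Of the genes named from the related lists, Pcna, E2f1, Rrm2, Slbp, Npat, Lsm11, Chaf1b, E2f3 and Cpsf3 did not pass in at least 1 alternative, Cdk2, Mcm2 and Supt6 passed in at least 1, and none changed sign. The cause was not tested.

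Some members that did not pass changed sign. Hist1h4n (−0.16) ranged from −0.40 to 0.23 with 1 library left out, above 0 when it was Ad-Con replicate 1 (0.23) or Ad-PDK4 replicate 2 (0.07). Hist1h2bn (0.05) was at −0.10 with a pseudocount of 1, and ranged from −0.85 to 0.67 with 1 library left out, below 0 when it was Ad-Con replicate 1 (−0.85), Ad-PDK4 replicate 2 (−0.038) or Ad-PDK4 replicate 3 (−0.07). Hist1h1b (0.23) ranged from −0.079 to 0.65, below 0 only when Ad-Con replicate 3 was left out, and Hist1h1e (0.12) from −0.25 to 0.36, below 0 when it was Ad-Con replicate 3 or Ad-PDK4 replicate 2 (−0.13).

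The replicate numbers in the titles are not stated to pair the samples, and same-numbered libraries did not deviate together (correlations across genes of −0.046, −0.031 and −0.0013). With the number as a replicate block, 4 members were higher and 4 lower, and 7 genes of the related lists were higher.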
